A study of Homo sapiens with 12 samples.

Results

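miR-126 and miR-9 were followed in small RNA libraries of the human AML cell lines MV4-11 and Molm-14. Both arms of each miRNA were taken by name, as hsa-miR-126-3p, hsa-miR-126-5p, hsa-miR-9-5p and hsa-miR-9-3p, which are 4 of the 1204 miRNAs counted. All 4 passed edgeR's filter on low counts, which kept 659 miRNAs. The 2 miR-9 arms passed it through their Molm-14 libraries: on the MV4-11 libraries alone neither arm was kept. Each line was measured as EV, transduced with the Empty Vector control, and as MPC1 KO, in which MPC1 had been deleted by a lentiviral CRISPR/Cas9 construct, with 3 libraries in each of the 4 groups. MPC1 is one part of the carrier that brings pyruvate into mitochondria, and the study used its loss to ask how reduced pyruvate-driven respiration affects miRNAs. All groups share the FLT3 internal tandem duplication and a KMT2A fusion, which is KMT2A-AFF1 in MV4-11 and KMT2A-MLLT3 in Molm-14. Each line stands for its fusion with 1 line only, so line and fusion cannot be told apart. Small RNA libraries do not measure MPC1 mRNA, so the deletion was not checked here. The study itself reported reduced MPC1 transcripts by qPCR and decreased respiration in both lines, and gave a Western blot of MPC1 protein for Molm-14. Nothing in the sources used here says whether libraries of 1 group stem from different cultures, and the p-values measure only the spread between these libraries.

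A miRNA hairpin is cut into a 5p and a 3p arm, and a loaded arm silences mRNAs that pair with its seed, the stretch near its 5′ end. miR-126 is known from endothelial cells, and in blood it is linked to the quiescence of haematopoietic stem cells and of leukaemic stem cells. miR-9 is known as a neural miRNA, and in leukaemia it has been described as raised by KMT2A fusion proteins. The comparison of the pair therefore sets a stem-cell-linked miRNA beside a fusion-linked one in cells that carry such fusions.

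The mature sequences are shown because the number of genomic copies of each one bears on its counts. They come from RefSeq on GRCh38.p14, and the capitals mark the seed, bases 2 to 8.
hsa-miR-126-3p: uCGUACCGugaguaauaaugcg
hsa-miR-126-5p: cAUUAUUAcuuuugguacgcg
hsa-miR-9-5p: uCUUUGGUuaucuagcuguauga
hsa-miR-9-3p: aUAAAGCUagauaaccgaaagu
The 4 seeds differ from each other, and none of the 1067 other counted miRNAs with a RefSeq sequence carried any of them or came close to a member: the nearest stood 8 or 9 edits away. Each miR-126 arm matched GRCh38 at 1 place, in the MIR126 hairpin at chr9:136670602-136670686 on the plus strand, which lies in an intron of EGFL7, a gene of endothelial cells. Each miR-9 arm matched exactly at 3 places. These are MIR9-1 at chr1:156420341-156420429 on the minus strand, MIR9-2 at chr5:88666853-88666939 on the minus strand and MIR9-3 at chr15:89368017-89368106 on the plus strand, and all of them overlap exons of long non-coding RNAs, named MIR9-1HG, LINC00461 and MIR9-3HG. The 3 hairpins are identical over 26 bases around the 5p arm and over 25 bases around the 3p arm, so the counts of miR-9 cannot be divided among its loci. The sole other annotated miRNA hairpin within 50 kb of these 4 loci was MIR6766, which lies 41207 bases from MIR9-3 on the opposite strand and whose arms had between 0 and 4 counts per library.

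The libraries held between 3870104 and 8683456 counts. TMM factors lay between 0.940 and 1.08. Replicates differed by more than sampling noise (chi-square per degree of freedom between 11.4 and 154), so none was a copy of another. Levels are given as CPM, counts scaled to a common TMM-adjusted library size. The blood miRNAs miR-142-3p, miR-142-5p, miR-223-3p and miR-155-5p had at least 10219 counts in every library. The fifth blood marker, miR-181a-5p, had between 0 and 8 counts and is taken up with the other miRNAs of several loci. Markers of other cell types were also counted, in part at levels that moved with the groups, and their part in the results was not tested. Of 5 neural markers 2 were in the table, miR-124-3p with between 0 and 6 counts and miR-219a-5p with between 4 and 33. Like miR-181a-5p, miR-219a-5p is a miRNA of several loci. Summed, the 2 neural markers had 1.13 to 2.87 CPM (EV) and 1.94 to 3.01 CPM (MPC1 KO) in MV4-11 and 3.37 to 4.99 CPM (EV) and 4.69 to 6.42 CPM (MPC1 KO) in Molm-14, with no overlap between the lines. Of 4 smooth muscle and stroma markers 2 were in the table, miR-143-3p with 413 to 4790 counts and miR-145-5p with 18 to 254. Their sum was 614 to 715 CPM (EV) and 507 to 589 CPM (MPC1 KO) in MV4-11, against 177 to 201 CPM (EV) and 99 to 104 CPM (MPC1 KO) in Molm-14, with no overlap between any of the 4 groups. The 3 epithelial markers summed to between 198 and 261 CPM in MV4-11 and between 105 and 137 CPM in Molm-14, nearly all of it miR-200c-3p (389 to 1906 counts), while miR-141-3p had 3 to 28 counts and miR-205-5p had 0 to 2. The erythroid markers miR-451a and miR-144-3p summed to between 3.19 and 11.7 CPM over all libraries.

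miR-126-3p was an abundant miRNA in all 4 groups. It had 6162, 5374 and 6088 CPM in MV4-11 EV, and 5156, 5779 and 5077 CPM in MV4-11 MPC1 KO. In Molm-14 it had 4385, 6132 and 4171 CPM in EV and 4466, 5635 and 4619 CPM in MPC1 KO. The groups overlapped throughout, and the second Molm-14 EV library reached the level of the MV4-11 controls. Their means fell in the order MV4-11 EV (5875 ± 435, SD, n = 3), MV4-11 MPC1 KO (5337 ± 385), Molm-14 MPC1 KO (4907 ± 635) and Molm-14 EV (4896 ± 1076), and no neighbours in that order were separated. By mean CPM it ranked between 24 and 33 among 1204 miRNAs and took between 0.471% and 0.592% of the counts.

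miR-126-5p, the less abundant arm, had 138, 166 and 198 CPM in MV4-11 EV and 153, 163 and 141 CPM in MV4-11 MPC1 KO. In Molm-14 it had 173, 180 and 190 CPM in EV and 174, 183 and 170 CPM in MPC1 KO. The MV4-11 EV libraries spread over the whole range of the other groups. The means were 181 ± 8.7 CPM in Molm-14 EV, 176 ± 6.92 in Molm-14 MPC1 KO, 167 ± 30.0 in MV4-11 EV and 152 ± 11.0 in MV4-11 MPC1 KO (SD, n = 3 each), with neighbours overlapping. This arm ranked between 138 and 145.

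Each miR-9 arm was counted at 54 reads or fewer in every library. miR-9-5p had 9, 3 and 6 counts in MV4-11 EV and 5, 5 and 1 in MV4-11 MPC1 KO, against 33, 19 and 27 with EV and 30, 24 and 14 with MPC1 KO in Molm-14. In MV4-11 this is 1.10, 0.679 and 1.44 CPM with EV and 0.971, 0.836 and 0.177 CPM with MPC1 KO, and in Molm-14 it is 6.59, 5.07 and 6.07 CPM with EV and 5.39, 4.4 and 3.28 CPM with MPC1 KO. All 6 Molm-14 libraries lay above all 6 MV4-11 libraries, while EV and MPC1 KO overlapped within each line. It ranked between 400 and 766 in the 4 groups.

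miR-9-3p had 16, 9 and 6 counts in MV4-11 EV and 5, 7 and 3 in MV4-11 MPC1 KO, against 30, 26 and 30 with EV and 54, 45 and 53 with MPC1 KO in Molm-14. In MV4-11 this is 1.95, 2.04 and 1.44 CPM with EV and 0.971, 1.17 and 0.530 CPM with MPC1 KO, and in Molm-14 it is 5.99, 6.94 and 6.75 CPM with EV and 9.71, 8.25 and 12.4 CPM with MPC1 KO. The 4 groups did not overlap: Molm-14 MPC1 KO was highest (10.1 ± 2.12), then Molm-14 EV (6.56 ± 0.503), MV4-11 EV (1.81 ± 0.325) and MV4-11 MPC1 KO (0.890 ± 0.328; SD, n = 3 each). It ranked between 325 and 694. At such counts a difference of a few reads moves a library's value by much of itself.

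**Figure D1:**
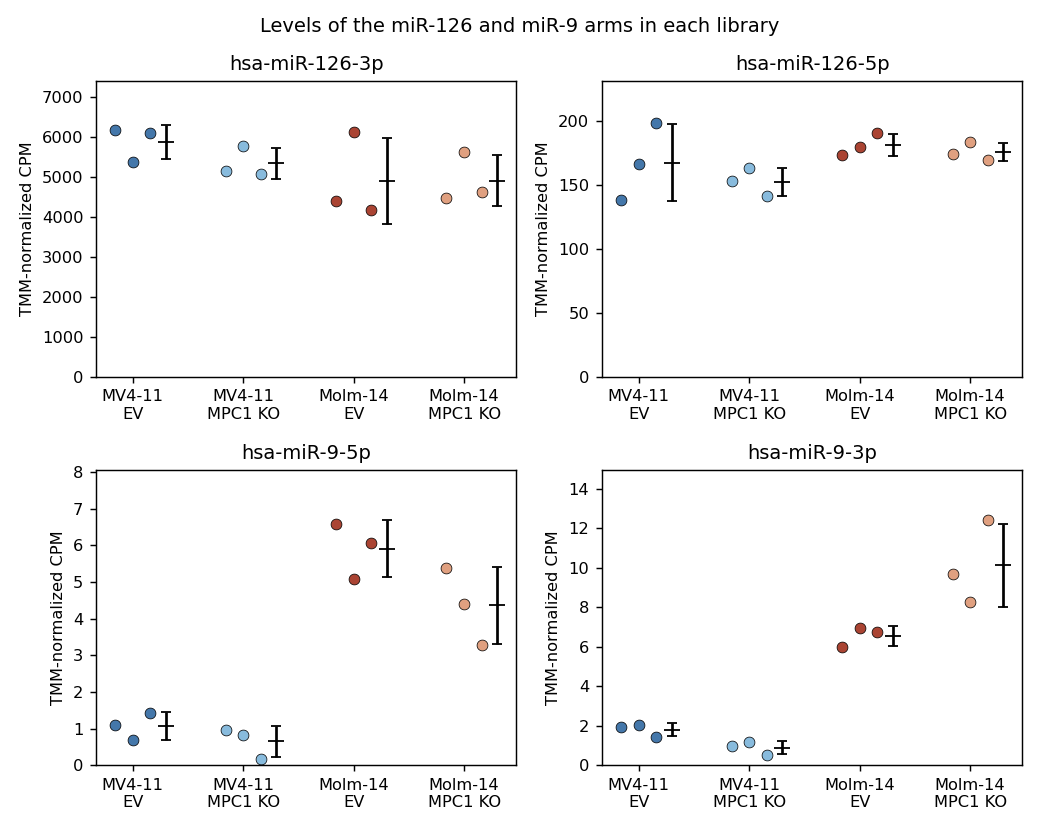
TMM-normalized CPM (vertical axes, linear and starting at 0) of each arm in the 12 libraries, by group, with points for libraries and the mean with its SD (n = 3) to the right of them. The miR-126 arms overlap across groups, while all Molm-14 libraries lie above all MV4-11 libraries for both miR-9 arms.

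The low miR-9 level stands beside a pattern in some other miRNAs, noticed after the values were seen. Some miRNAs whose mature sequence occurs at several loci had few counts next to relatives with 1 locus. Over the 12 libraries hsa-miR-26a-5p averaged 3.48 CPM against 13401 for hsa-miR-26b-5p, hsa-miR-24-3p averaged 2.47 against 16313 for hsa-miR-27a-3p of its own cluster, and hsa-miR-181a-5p averaged 0.517 against 447 for hsa-miR-181a-2-3p. This did not hold for all miRNAs of several loci. Of 36 of them other than miR-9, 3 were among the 100 most abundant, nearly the same share as 86 of 1030 with 1 locus. hsa-miR-92a-3p, at 2 loci, had 3410 CPM in MV4-11 EV and 5731 in Molm-14 EV. How reads that match several loci were treated is not given in the sources used here, and featureCounts leaves them out unless told otherwise. The counts of the miR-9 arms (3 loci) and of the miR-126 arms (1 locus) therefore cannot be read as their relative amounts in the cells. The part of read assignment in the low miR-9 counts was not tested.

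Between the EV controls of the lines, both miR-9 arms were higher in Molm-14 and the miR-126 arms were not called. miR-9-5p was 5.46-fold higher (95% interval 3.16 to 9.42, log2 fold change 2.45, SE 0.38, edgeR adjusted p = 4.85e-06, from the quasi-likelihood test with Benjamini-Hochberg adjustment). miR-9-3p was 3.53-fold higher (2.27 to 5.48, log2 fold change 1.82, SE 0.31, edgeR adjusted p = 1.52e-05). Thus 2 of the 4 members passed, where 61.9% of all miRNAs tested did, and the same 2 had no overlap between lines, as had 64.2% of all. A difference between these lines is common among miRNAs, and 13.5% and 21.2% of those tested had larger changes in size than miR-9-5p and miR-9-3p.

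For miR-126-3p the log2 difference between lines was -0.26 (95% interval -0.53 to -0.00091, edgeR adjusted p = 0.0755), with overlapping libraries. This lay close to the threshold: it passed with RLE factors, upper-quartile factors, total counts, no filter, a filter at a mean of 100 counts or a replicate block (adjusted p from 0.00343 to 0.0360), and not with DESeq2 (adjusted p = 0.0509). It also passed in the edgeR fit without replicate 2 of MV4-11 EV (log2 difference -0.34), of Molm-14 EV (-0.44) or of Molm-14 MPC1 KO (-0.31). For miR-126-5p the log2 difference was 0.12 (-0.12 to 0.36, edgeR adjusted p = 0.401), and upper-quartile factors, which shifted the median of all miRNAs by -0.18, turned its sign.

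With MPC1 deleted in both lines, the difference in miR-9 between them was also called. miR-9-5p was 6.52-fold higher in Molm-14 (3.54 to 12, log2 fold change 2.71, SE 0.43, edgeR adjusted p = 5.84e-06). miR-9-3p was 11.0-fold higher (6.90 to 17.5, log2 fold change 3.46, SE 0.33, edgeR adjusted p = 1.48e-09). Again 2 of the 4 passed, where 62.4% of all did. miR-126-3p differed by -0.12 on the log2 scale (-0.38 to 0.14, edgeR adjusted p = 0.421). miR-126-5p differed by 0.20 (-0.038 to 0.45, edgeR adjusted p = 0.135) although its libraries did not overlap, as was so for 67.5% of miRNAs.

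Other miRNAs of several loci also differed between the lines, more often upward than downward in Molm-14. Leaving out the miR-9 arms, 21 of them were tested, and between the EV controls 11 (52.4%) were higher in Molm-14 and 5 (23.8%) lower, with 5 not passing and a median log2 fold change of 0.71. Among 558 miRNAs of 1 locus, 33.2% were higher and 28.1% lower, with a median of 0.056, and the difference between these classes was not tested. With MPC1 deleted 12 of the 21 were higher and 6 lower, with a median of 0.86 against 0.052 for those of 1 locus. The 21 are not all separate cases. hsa-let-7a-5p and hsa-let-7a-3p share hairpins, and hsa-miR-19b-3p and hsa-miR-92a-3p belong to the miR-17-92 cluster. hsa-let-7a-5p, whose sequence also lies at 3 loci, had 41.4 CPM in MV4-11 EV and 254 in Molm-14 EV (log2 fold change 2.60, SE 0.15, edgeR adjusted p = 3.20e-13), while its 1-locus relative hsa-let-7g-5p had 55248 and 59751 CPM (log2 fold change 0.11, adjusted p = 0.315). The number of loci did not sort the let-7 miRNAs, though. Among others of 1 locus, the log2 fold change was 4.45 for hsa-let-7c-5p, 2.71 for hsa-let-7b-5p and 1.83 for hsa-let-7e-5p. It was 0.46 for hsa-let-7i-5p and -0.15 for hsa-let-7d-5p, also of 1 locus, and -0.14 for hsa-let-7f-5p, at 2 loci. hsa-miR-19b-3p, at 2 loci, differed by 1.9 on the log2 scale, and hsa-miR-19a-3p, at 1 locus, by 0.46. These names were chosen after their values were seen, and the part of this pattern in the miR-9 difference was not tested.

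**Figure D2:**
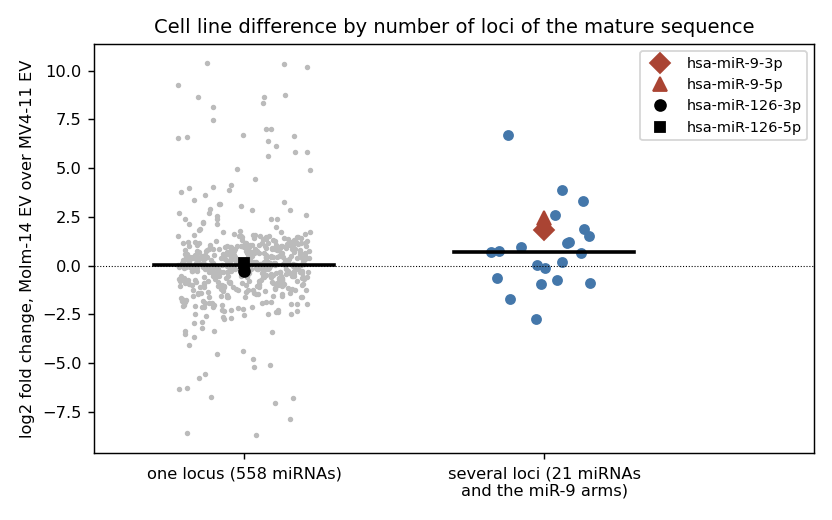
Log2 fold change of Molm-14 EV over MV4-11 EV (vertical axis) for miRNAs whose mature sequence lies at 1 locus (558) or at several (21, with the miR-9 arms added as large symbols), with horizontal spread for legibility and bars at the medians without the miR-9 arms. The miR-9 arms sit at 2.45 and 1.82, above the several-locus median of 0.71, and the miR-126 arms sit near 0.

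Within the lines, MPC1 deletion changed none of the 4 members at an adjusted p under 0.05 by edgeR. DESeq2 called none of them in MV4-11 and neither miR-126 arm in Molm-14, where it gave the miR-9 arms no adjusted p (unadjusted p = 0.290 for miR-9-5p and 0.0523 for miR-9-3p). In MV4-11, 20 of 659 miRNAs (3.03%) passed edgeR's test, and in Molm-14, 45 (6.83%) did. At an unadjusted p under 0.05 in edgeR's test miR-9-3p alone of the 4 was picked out in each line, against 14% and 19.4% of all miRNAs. With TMM 13 calls were higher and 7 lower in MV4-11 and 18 and 27 in Molm-14. Upper-quartile factors gave 10 and 15 in MV4-11 and 30 and 23 in Molm-14, and total counts gave 20 and 6 in MV4-11.

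miR-126 gave the narrowest intervals. The log2 fold change of miR-126-3p was -0.14 in MV4-11 (95% interval -0.40 to 0.12, edgeR adjusted p = 0.688) and 0.0033 in Molm-14 (-0.26 to 0.27). That of miR-126-5p was -0.13 in MV4-11 (-0.37 to 0.11, edgeR adjusted p = 0.686) and -0.044 in Molm-14 (-0.29 to 0.20, edgeR adjusted p = 0.907). In fold terms the intervals of both arms over both lines ran from 0.758 to 1.20, so a doubling or halving of either arm lay outside them. In Molm-14, 97.9% of miRNAs tested had a larger change in size than miR-126-3p.

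miR-9-3p was lower in MV4-11 MPC1 KO and higher in Molm-14 MPC1 KO in every library, without passing in either line. Its log2 fold change in MV4-11 was -1.02 (95% interval -1.88 to -0.16, SE 0.42, edgeR adjusted p = 0.226), and its libraries did not overlap, as was so for 17.5% of miRNAs. Pooled over libraries this rests on 31 counts in EV and 15 in MPC1 KO. In Molm-14 the log2 fold change was 0.62 (0.11 to 1.13, SE 0.25, edgeR adjusted p = 0.138), from 86 and 152 counts, again with no overlap, as for 27.2% of miRNAs. miR-9-5p gave -0.69 in MV4-11 (-1.80 to 0.43, edgeR adjusted p = 0.657) and -0.43 in Molm-14 (-1.06 to 0.20, edgeR adjusted p = 0.5), with overlap in both. Each of these miR-9 intervals held both a small change and a 2-fold one.

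The effect of MPC1 KO on miR-9-3p differed between the lines when tested directly. The log2 difference, Molm-14 minus MV4-11, was 1.64 (95% interval 0.64 to 2.64, SE 0.48, edgeR adjusted p = 0.0404), and 44 miRNAs (6.68%) passed this test, 2.43% of those tested with a higher effect in Molm-14 and 4.25% with a lower one. With upper-quartile factors, which shifted the median of all miRNAs by 0.18 here, the split of those calls went from 16 higher and 28 lower to 31 and 13. The call for miR-9-3p held with RLE factors and upper-quartile factors. It was lost with DESeq2 (log2 difference 1.65, adjusted p = 0.0746), total counts, no filter and a replicate block. It was also lost when any library was left out other than replicate 3 of MV4-11 EV or replicate 2 of either MPC1 KO group (adjusted p up to 0.150, without MV4-11 MPC1 KO replicate 3). The same difference was 0.26 for miR-9-5p (-0.98 to 1.49), 0.14 for miR-126-3p (-0.23 to 0.51) and 0.086 for miR-126-5p (-0.26 to 0.43), and none of these passed (adjusted p from 0.730 to 0.883 by edgeR).

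**Figure D3:**
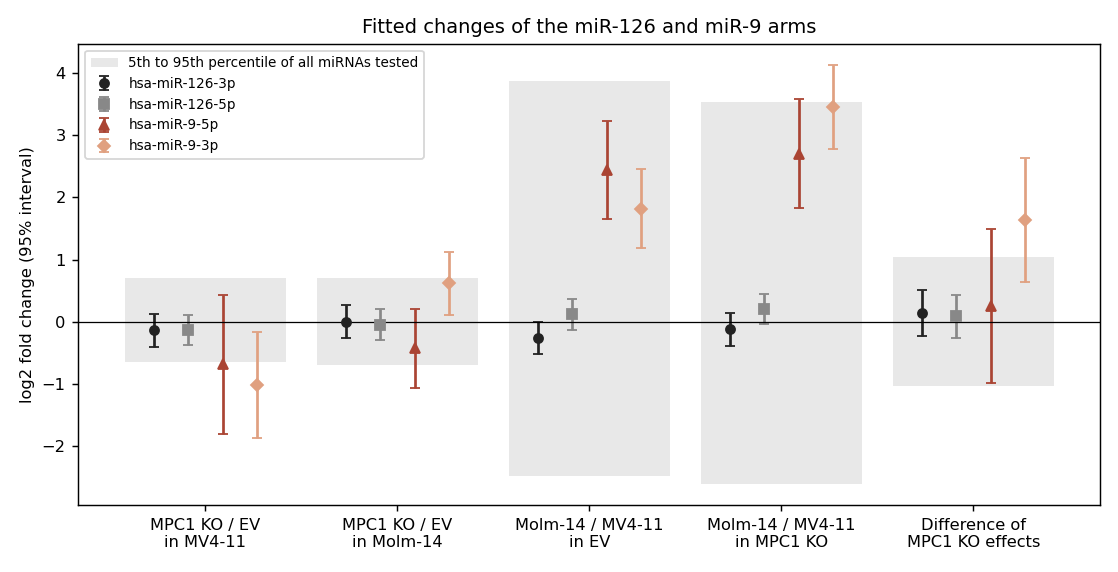
Log2 fold changes (vertical axis) of the 4 arms from the edgeR fit with 95% intervals as bars, in the 5 comparisons, over grey bands from the 5th to the 95th percentile of all 659 miRNAs tested. The miR-126 arms lie near 0 in each comparison, and the miR-9 arms lie between 1.82 and 3.46 in both comparisons of Molm-14 with MV4-11.

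The share of each arm was compared within libraries, which does not depend on how they are scaled. miR-126 was counted mostly as its 3p arm: the 5p arm made up between 2.19% and 4.36% of its counts. Pooled, that share was 2.63% with EV (Clopper-Pearson 95% interval 2.53 to 2.73) and 2.77% with MPC1 KO (2.67 to 2.88) in MV4-11, and 3.62% with EV (3.48 to 3.77) and 3.45% with MPC1 KO (3.32 to 3.58) in Molm-14. Such intervals cover counting error only. The log2 ratio of 3p to 5p counts was 5.15 ± 0.29 with EV and 5.13 ± 0.046 with MPC1 KO in MV4-11, and 4.74 ± 0.32 with EV and 4.80 ± 0.13 with MPC1 KO in Molm-14 (SD, n = 3 each). The lines overlapped in EV and did not overlap in MPC1 KO, where the difference was -0.33 (p = 0.1 by an exact two-sided permutation test, which cannot go lower with 3 libraries against 3).

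The miR-9 counts showed no such dominant arm. Both miR-9 arms lie at 3 loci, and how reads that match several loci were treated is not given. The shares below are therefore shares of the counted reads and cannot be read as arm use in the cells. The part of read assignment in them was not tested. The 5p share of miR-9 in Molm-14 was 52.4%, 42.2% and 47.4% in the EV libraries and 35.7%, 34.8% and 20.9% in the MPC1 KO libraries. All MPC1 KO shares lay below all EV shares, and pooled they were 30.9% of 220 counts (Clopper-Pearson 95% interval 24.9 to 37.5) and 47.9% of 165 counts (40.1 to 55.8). The log2 ratio of 5p to 3p counts differed by -1.05 (p = 0.1 by the exact two-sided permutation test, its lowest value, and 0.240 after Benjamini-Hochberg adjustment over 12 ratio tests). In MV4-11 the shares rested on 4 to 25 counts per library and overlapped. There the difference in the log2 ratio was 0.19 (exact two-sided permutation test, p = 0.8).

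**Figure D4:**
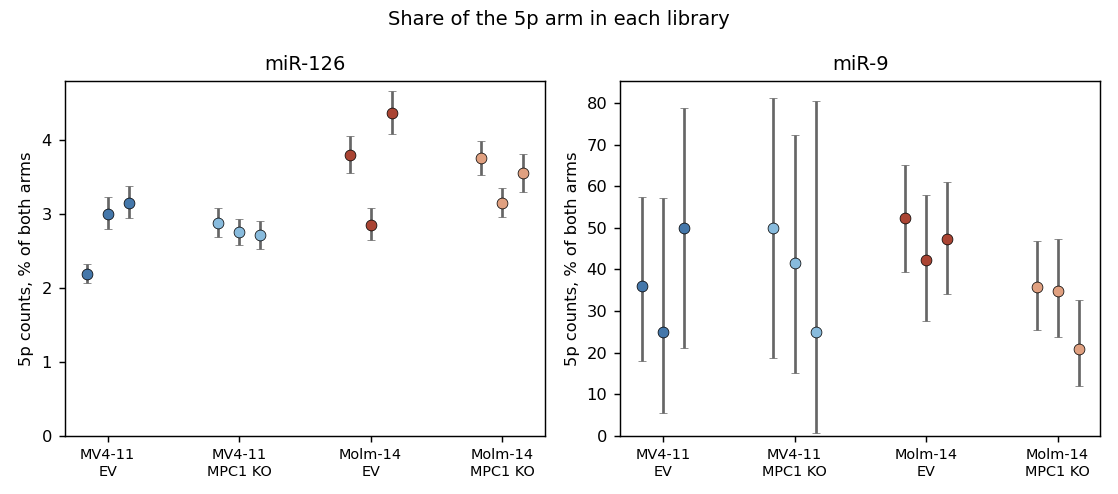
Share of the 5p arm among the counts of both arms (vertical axes, percent, starting at 0 with different scales) for miR-126 and miR-9 in each library, with Clopper-Pearson 95% intervals as bars. The miR-126 shares lie between 2.19% and 4.36%, and the Molm-14 MPC1 KO shares of miR-9 lie below those of Molm-14 EV.

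miR-126 and miR-9 were then set against each other as a ratio of their summed arms, which compares libraries and not the amounts of the 2 miRNAs. For each miR-9 count there were 2030, 1957 and 2101 miR-126 counts in MV4-11 EV and 2603, 2843 and 6570 in MV4-11 MPC1 KO. In Molm-14 there were 360, 520 and 337 in EV and 305, 456 and 303 in MPC1 KO. Every Molm-14 library lay below every MV4-11 library, and the highest value, in the third MV4-11 MPC1 KO library, rested on 4 miR-9 counts. The log2 ratio differed between the lines by -2.35 in EV and by -3.39 in MPC1 KO, with no overlap. For MPC1 KO against EV it differed by 0.85 in MV4-11, with no overlap, and by -0.19 in Molm-14, with overlap. The MV4-11 value fell to 0.42 without MPC1 KO replicate 3, the library of 4 miR-9 counts, and ran up to 1.09 without other single libraries. The 3 comparisons without overlap each gave p = 0.1 in an exact two-sided permutation test, and 0.240 after adjustment over the 12 ratio tests. With miR-126-3p over miR-9-5p alone the Molm-14 value turned to 0.47.

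**Figure D5:**
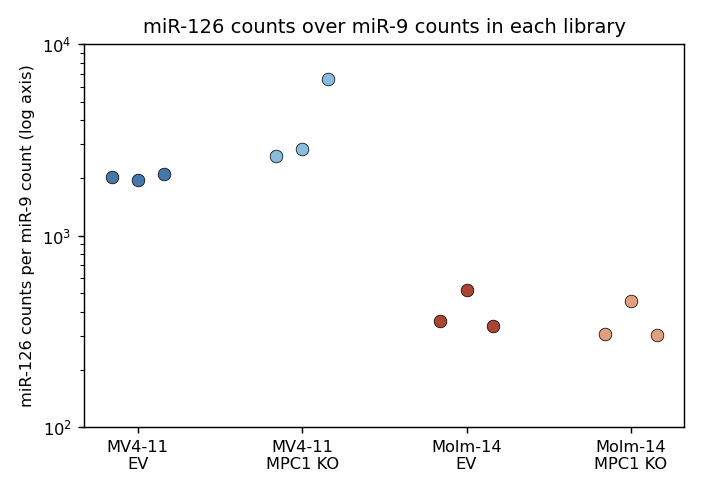
Counts of both miR-126 arms for each count of the miR-9 arms (vertical axis, logarithmic) in each library, by group, with points for libraries. The Molm-14 libraries lie between 303 and 520, below the MV4-11 libraries, which lie between 1957 and 6570.

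The miRNAs with the most similar patterns over the 12 libraries were sought among 333 with a mean of at least 50 counts, by Pearson's r of log2 CPM, as a description. The miR-9 arms followed miRNAs that are higher in Molm-14. For miR-9-5p these were hsa-miR-16-2-3p (r = 0.953), hsa-miR-148a-5p (0.953) and hsa-miR-1180-3p (0.948), and for miR-9-3p they were hsa-miR-18a-5p (0.989), hsa-let-7f-2-3p (0.981) and hsa-miR-16-5p (0.977). hsa-miR-18a-5p had 918 (EV) and 740 (MPC1 KO) CPM in MV4-11 and 1620 (EV) and 1763 (MPC1 KO) CPM in Molm-14, the same order of groups as miR-9-3p. Lower likeness was found for miR-126-3p (hsa-miR-3177-3p, 0.770, hsa-miR-643, 0.723, and hsa-miR-4425, 0.682) and for miR-126-5p (hsa-miR-29c-3p, 0.854, hsa-miR-532-5p, 0.765, and hsa-miR-769-5p, 0.752). Between the members r was 0.905 for the miR-9 arms and -0.156 for the miR-126 arms. The points share the libraries and their depth.

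Other miRNAs with the same links were counted as lists, for comparison. Of 10 other stem-cell-linked miRNAs 9 were tested. MPC1 KO raised 3 and lowered 1 in MV4-11, where 1.97% of all miRNAs rose and 1.06% fell, and raised 1 and lowered 4 in Molm-14, where 2.73% rose and 4.1% fell. The 3 that rose in MV4-11 were hsa-let-7e-5p (log2 fold change 1.43), hsa-miR-125a-5p (1.32) and hsa-miR-99b-5p (1.28), which fell by 0.44, 0.49 and 0.57 on the log2 scale in Molm-14 (all passing edgeR's test), and their effects differed between lines. These 3 lie in 1 genomic cluster, so they are not separate cases in any count of this list. The median of the list was 0.21 in MV4-11 and -0.19 in Molm-14, against -0.0035 and -0.013 for all miRNAs. Between the EV controls 6 of the 9 were higher in Molm-14 and 1 lower. The higher ones included hsa-miR-99a-5p, with 7.72 CPM in MV4-11 and 8325 in Molm-14. They also included hsa-let-7e-5p, hsa-miR-125a-5p and hsa-miR-99b-5p of that cluster, and hsa-miR-125b-5p, which lies at 2 loci. The list's median between the EV controls was 1.08 against 0.060 for all miRNAs, of which 33.5% were higher in Molm-14 and 28.4% lower. With MPC1 deleted 3 were higher in Molm-14 and 3 lower, against 32.9% and 29.4% of all, with a median of -0.0057 against 0.052.

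Of 10 other KMT2A-fusion-linked miRNAs all were tested, and between the EV controls 8 were higher in Molm-14, as were both miR-9 arms, and 1 was lower, hsa-miR-21-5p (log2 fold change -0.68). hsa-miR-196b-5p stood on both this list and the stem-cell-linked one. The higher ones in EV included hsa-miR-10a-5p, which lies in a HOX cluster (log2 fold change 5.80), and hsa-miR-20a-5p of the miR-17-92 cluster (1.05). hsa-miR-17-5p, hsa-miR-18a-5p, hsa-miR-19a-3p, hsa-miR-19b-3p and hsa-miR-92a-3p belong to the miR-17-92 cluster too. All members of this cluster on the list were higher in Molm-14, in EV and with MPC1 deleted. They are not separate cases, and they make up most of the higher ones in both comparisons. Of the 8, hsa-miR-19b-3p, hsa-miR-92a-3p and hsa-miR-196a-5p lie at several loci, as miR-9 does. The list's median was 0.78 against 0.060 for all miRNAs, of which 33.5% were higher and 28.4% lower. With MPC1 deleted 7 were higher and 3 lower, against 32.9% and 29.4% of all miRNAs, with a median of 1.16 against 0.052. In MV4-11, MPC1 KO changed 0 of 10 by edgeR's test, where 3.03% of all miRNAs were called, with a median of -0.24 against -0.0035. In Molm-14 it raised 0 and lowered 2, where 2.73% of all rose and 4.1% fell, with a median of 0.088 against -0.013. Those 2 were hsa-miR-196a-5p (log2 fold change -2.40) and hsa-miR-10a-5p (-1.33). The direct test of the difference between lines called 4 of the 10, against 6.68% of all miRNAs, besides miR-9-3p: hsa-miR-18a-5p (0.43) and hsa-miR-19a-3p (0.60) in the direction of miR-9-3p, and hsa-miR-196a-5p (-2.67) and hsa-miR-10a-5p (-0.96) in the other.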

How the data were processed

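Small RNA was sequenced by the authors from 12 libraries, made with a NEBNext small RNA kit. The authors deposited raw counts, whole numbers of reads per mature miRNA without normalization. The submitters' processing notes name STAR 2.5.2, featureCounts 1.5.1 and GRCh38, and give neither the order of steps nor the handling of reads that match several loci. Libraries were grouped by their labels. From the deposited counts, edgeR 4.0.16 (R 4.3.3) was run on all 12 libraries with filterByExpr (minimum count 10), TMM factors and a robust quasi-likelihood fit of 4 group means, with Benjamini-Hochberg adjustment over 659 miRNAs and a threshold of 0.05. The study's methods name DESeq2, which is an alternative here (DESeq2 1.42.0), beside other scalings, filters, a replicate block, each line alone and leaving out each library. Ratios (0.5 added to each count) were tested by exact permutation, two-sided. With a few counts per library, miR-9 values carry wide counting error.

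Named miRNAs were the 4 members, the 3 closest in pattern to each, miRNAs sharing a seed or lying within 50 kb, and at most 3 past the threshold per list and comparison. The miRNAs of several loci, and list members given for both lines, were named after their values were seen. Members and lists were chosen with earlier results of these data known. Sequences and hairpins were taken from RefSeq, and the sequences of all 4 members were found in the genome at their RefSeq loci. Host genes came from GENCODE version 44 on the same build. The fit was tested on simulated data.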

Additional observations from a re-analysis of the deposited data

Results flagged for a closer look

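The effect of MPC1 KO on hsa-miR-9-3p differed between the cell lines by 1.64 on the log2 scale (Molm-14 minus MV4-11, edgeR adjusted p = 0.0404), with lower counts after deletion in MV4-11 and higher counts in Molm-14. It is given here because the difference itself passed the test while neither line's own change did. The call was lost with DESeq2, total counts, no filter and a replicate block, and it passed in 3 of 12 fits without single libraries. The difference rests on 31 and 15 counts in MV4-11 and on 86 and 152 in Molm-14, summed over 3 libraries each. The other miRNAs of several loci had a median difference of 0.11, with 0 of 21 called higher and 1 lower.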

How the results depend on the processing

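The higher level of both miR-9 arms in Molm-14 kept its call in all alternatives that could test it, with log2 fold changes from 2.25 to 3.04 for miR-9-5p and from 1.64 to 3.72 for miR-9-3p. A filter at a mean of 100 counts removed both arms, as did edgeR on MV4-11 alone. The difference in the MPC1 KO effect on miR-9-3p was 1.65 with DESeq2 (adjusted p = 0.0746), 1.58 with total counts (0.0583), 1.64 with no filter (0.0759) and 1.64 with a replicate block (0.0576), and passed with RLE (1.63) and upper-quartile factors (1.83). Without single libraries it ran from 1.40 to 1.92 and passed in 3 of 12 fits. The line difference of miR-126-3p in EV passed at -0.30 with RLE, -0.45 with upper-quartile factors, -0.33 with total counts, -0.28 with no filter, -0.35 at a mean of 100 counts and -0.29 with a replicate block, and without single libraries ran from -0.44 to -0.11. Uncalled values that changed sign were miR-126-3p for MPC1 KO in Molm-14 (-0.010 at a mean of 100 counts, and -0.096 to 0.23 without single libraries), miR-126-5p there (0.028 with upper-quartile factors, -0.063 to 0.00023 without single libraries) and between EV lines (-0.058 with upper-quartile factors, -0.055 to 0.24), and the log2 ratio of miR-126-3p to miR-9-5p alone in Molm-14 (0.47). Without single libraries signs also changed for the difference of MPC1 KO effects of miR-126-3p (-0.025 to 0.30), miR-126-5p (-0.032 to 0.24) and miR-9-5p (-0.17 to 0.60), and for MPC1 KO on the arm ratio of miR-126 in MV4-11 (-0.12 to 0.15) and Molm-14 (-0.080 to 0.24) and of miR-9 in MV4-11 (-0.16 to 0.56). The causes were not tested. At a mean of 100 counts 212 miRNAs were called between lines in EV and 214 in MPC1 KO, from 279 tested. Without single libraries the calls ran from 12 (without MV4-11 MPC1 KO replicate 1) to 38 (without Molm-14 EV replicate 2) for MPC1 KO in MV4-11 and from 22 (without MV4-11 MPC1 KO replicate 3) to 53 for the difference of effects. Replicate numbers did not pair the libraries: deviations of same-numbered libraries correlated at -0.127 to 0.183, 2 of 18 pairs were over 0.1, and 5 of 12 libraries correlated best with their own number. The replicate block changed no other call of a member than those 2.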
